A study of Mus musculus with 16 samples.

Results

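The 49 genes described here drive and carry out the cell division cycle: cyclins and their kinase Cdk1, factors that copy DNA, spindle assembly checkpoint proteins and mitotic kinases, spindle and chromosome proteins, the transcription factors that switch these genes on, and Cdk inhibitors. They are the entries of the counts table whose symbol is on a fixed list of 49, out of 25054 entries, and each symbol was found once. Their RNA was measured in lung and liver of newborn pups from crosses of heterozygotes for the Man1a2tm1.1Ahe allele, which lacks exon 2 of the mannosidase gene Man1a2. The heterozygotes had been bred from Man1a2tm1.1Ahe and C57BL/6J mice. The parents received N-acetyl cysteine (NAC), a precursor of glutathione, at up to 1 g/kg body weight, or placebo (water), from a week before breeding until delivery, and pups were followed for up to 24 h. The 4 pup groups were wild-type (WT) pups that lived, heterozygous (Het) pups that lived, Het pups that died, and homozygous mutants (Null) that died, the dead pups being harvested at once. Pups that lived were harvested 24 h after birth, so the dead pups were younger at harvest. RNA was pooled from 3 experiments before sequencing, or from 2 for dead Het pups, so that 16 pools, 1 for every combination of pup group, treatment and tissue label, stand for the pups and hide the spread between them. No live Null and no dead WT pups were sequenced.

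A cell passes through the cycle by raising and destroying cyclins in turn. The D cyclins answer growth signals in G1, the E cyclins start and the A cyclin sustains DNA synthesis, and the A and B cyclins with Cdk1 take the cell into mitosis. RNAs of the A and B cyclins, of the replication factors and of the mitotic machinery are made mainly in dividing cells, whereas Cdkn1a (p21) and Cdkn1b (p27) hold Cdks back and are often high in cells that have stopped dividing. The liver of a newborn mouse still makes blood cells, and its red cell precursors divide rapidly.

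The tissue label did not give the tissue found in a library. Sftpc, the surfactant protein of alveolar type II cells, and Alb, serum albumin, were used to sort the libraries: 7 had lung content (Sftpc of at least 1000 counts per 1000000 counts of the library and Alb under 1000), 8 had liver content (Alb of at least 50000) and 1 was mixed. Of the 15 with a clear content, 7 matched their tissue label and 8 did not. Pup group, survival and treatment were taken from the same labels, and no check of them was made here. The lung-content libraries were live WT NAC, live Het NAC and dead Het placebo, labelled lung, and live WT placebo, live Het placebo, dead Het NAC and dead Null placebo, labelled liver. The liver-content libraries were live WT placebo, live Het placebo, dead Het NAC and dead Null NAC, labelled lung, and live WT NAC, live Het NAC, dead Het placebo and dead Null NAC, labelled liver. The mixed library was dead Null placebo, labelled lung. Libraries held 7236865 to 16107749 counts, and the share of the ribosomal RNA symbol Rn45s was 4.05 to 26.2% in lung-content and 0.845 to 6.29% in liver-content libraries. Man1a2 itself, counted over the whole gene and so no check of a lost exon 2, had 34.3 to 60.3 CPM in the Null and 29.7 to 75.4 CPM in the WT libraries. All levels below are CPM, counts per 1000000 counts after scaling by the TMM factors of edgeR, which correct for differences in composition.

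The clearest difference among these genes was between the contents: 45 of the 49 were lower in the lung-content than in the liver-content libraries, and 4 were higher, namely the D cyclins Ccnd1 and Ccnd2 and the inhibitors Cdkn1a and Cdkn1b. The median log2 fold change of the 49 (lung content minus liver content) was -3.14, and over all 14175 genes tested it was -0.0885. Genes were called by the quasi-likelihood test of edgeR, which took pup group and treatment into account, where the Benjamini-Hochberg adjusted p was under 0.05. Among all genes tested, 39.2% were called higher in liver content and 34.9% higher in lung content. The highest library of one content lay below the lowest of the other for 46 of the 49, against 49.9% of all genes tested. In bulk RNA, fewer dividing cells and less of each RNA per cell cannot be told apart. Scaled by library size without TMM factors, the median of all genes moved to 0.56 and that of the 49 to -2.49, and the same 49 were called, 45 lower and 4 higher.

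**Figure D1:**
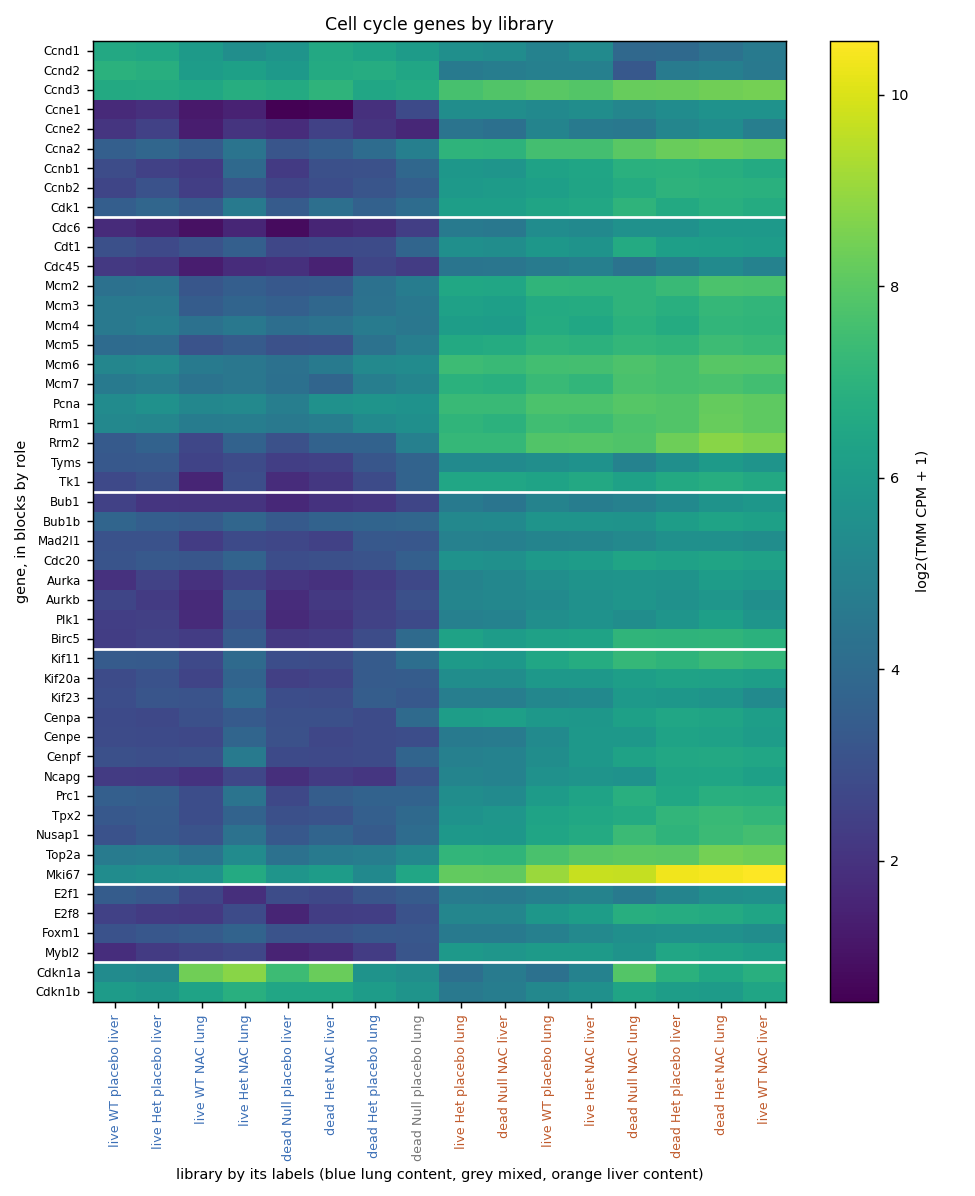
Level of each of the 49 genes (vertical axis, in blocks by role) in each of the 16 libraries (horizontal axis, by label, ordered by content and then by the summed erythroid markers), as log2(TMM CPM + 1). Nearly every gene brightens from the 7 lung-content to the 8 liver-content libraries, while Ccnd1, Ccnd2, Cdkn1a and Cdkn1b do not.

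Among the cyclins, Ccne1, which starts DNA synthesis, ranged from 0.445 through a median of 1.81 to 2.8 CPM over the 7 lung-content libraries and from 34.6 through 42.6 to 48.8 CPM over the 8 liver-content libraries. The 2 ranges were far apart, and its log2 fold change was -4.71 (SE 0.32, edgeR adjusted p = 1.07e-08), or 26.2-fold lower in lung content. Its lowest value rested on 4 counts, the smallest count of any of the 49 genes in any library. Ccna2, needed both for DNA synthesis and for entry into mitosis, had 8.13, 10.9 and 20.1 CPM (lowest, median, highest) in lung content and 128, 221 and 331 CPM in liver content. Ccnb1 and Ccnb2, the mitotic cyclins, were 13.7-fold and 14.8-fold lower in lung content. Their kinase partner Cdk1 had 9.58, 11.4 and 23.7 CPM in lung content and 70.4, 95 and 133 CPM in liver content, without overlap. Its log2 fold change was -2.79 (SE 0.20, edgeR adjusted p = 2.07e-08).

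The D cyclins divided. Ccnd2 had 58.7, 99.3 and 121 CPM in lung content and 8.91, 25.6 and 29 CPM in liver content, a log2 fold change of 1.80 (SE 0.21, edgeR adjusted p = 3.56e-06). Ccnd1 had 43.5, 79.7 and 95.4 CPM in lung content and 14, 27.1 and 45.1 CPM in liver content, so that its ranges met, with the live Het NAC library the lowest of the lung-content and live Het placebo the highest of the liver-content libraries. Its log2 fold change was 1.38 (SE 0.31, edgeR adjusted p = 0.00111). Ccnd3, the D cyclin of blood cells, went the other way, with 87.6 to 131 CPM in lung content and 201 to 348 CPM in liver content. Merged exons join all annotated transcripts of a gene (4709 bases for Ccnd1, 9409 for Ccnd2 and 8775 for Ccnd3). The transcripts present may be shorter, so an order of levels per kilobase depends on the annotation. Per kilobase of merged exon, the order of the median levels was Ccnd1 (16.9 CPM per kilobase), Ccnd3 (11.3) and Ccnd2 (10.6) in lung content. In liver content Ccnd3 led at 31.6 CPM per kilobase, with Ccnd1 at 5.75 and Ccnd2 at 2.72. Exons of all 3 overlap genes of the other strand (1100 bases for Ccnd1, 740 for Ccnd2 and 361 for Ccnd3), and whether the counting used strand is not given in the sources used here.

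All 14 replication genes were lower in lung content, with a median log2 fold change of -3.06. Rrm2, the regulated subunit of ribonucleotide reductase, which makes the DNA precursors, had 5.42, 11.7 and 12 CPM in lung content and 147, 231 and 434 CPM in liver content. Its log2 fold change of -4.73 (SE 0.26, edgeR adjusted p = 1.74e-09) was the most negative of the 49. Cdc6, which loads the replicative helicase onto DNA, was next among the replication genes at -4.57 (SE 0.28, edgeR adjusted p = 4.17e-09), with 0.779 to 2.38 CPM in lung content and 22.3 to 61.8 CPM in liver content. Tk1, the thymidine kinase of S phase, was at -4.37 (SE 0.25, edgeR adjusted p = 2.57e-09). The 6 helicase subunits Mcm2 to Mcm7 lay between -3.62 (Mcm5) and -2.25 (Mcm4). Mcm4 and Pcna, the sliding clamp of the polymerase, changed least of the replication genes. Pcna kept 27.6 to 52.3 CPM in the lung-content libraries, against 158 to 291 CPM in liver content.

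The 8 checkpoint proteins and mitotic kinases were all lower, with a median of -3.38. Birc5 (survivin), a subunit of the complex that corrects chromosome attachment, had the lowest value, -4.30, with 3.56 to 9.75 CPM in lung content and 67.1 to 136 CPM in liver content. Its kinase partner Aurkb was at -3.34, Aurka, the spindle pole kinase, at -3.72, and Plk1, which acts throughout mitosis, at -3.53. Of the checkpoint proteins proper, Bub1 was at -3.41, Mad2l1 at -2.66 and Bub1b at -2.27, and Cdc20, the activator of the anaphase-promoting complex that they restrain, was at -3.00.

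The 12 spindle and chromosome genes were all lower too, with a median of -3.26. Mki67 (chromosome 7, 135689784 to 135716361, GRCm38), which codes for the Ki-67 antigen that coats mitotic chromosomes, had 38.4, 48 and 99.3 CPM in lung content. In liver content it had 274, 827 and 1510 CPM. Its log2 fold change was -3.76, with the largest SE of the 45 lower genes (SE 0.40, edgeR adjusted p = 1.12e-06). Top2a, the topoisomerase that untangles sister chromatids, had 18.3, 25.4 and 40.9 CPM in lung content and 134, 250 and 355 CPM in liver content, a log2 fold change of -3.17 (SE 0.24, edgeR adjusted p = 3.37e-08). The kinesin motors Kif11, Kif20a and Kif23 were at -3.62, -3.14 and -2.26. Cenpa, the histone that marks the centromere, was at -3.35 with the smallest error of the 12 (SE 0.15).

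Of the 4 transcription factors, Mybl2 and E2f8 were at -4.27 and -4.11, and E2f1 and Foxm1 at -2.36 and -2.03. Mybl2 joins the complex that turns on mitotic genes, where Foxm1 acts after it, and E2f1 activates and E2f8 represses replication genes. Both inhibitors were called higher in lung content with ranges that overlapped. Cdkn1a had 36.4, 168 and 435 CPM in lung content and 17.1, 59.9 and 234 CPM in liver content (log2 fold change 1.5, SE 0.57, edgeR adjusted p = 0.0281). Cdkn1b had 56.6, 80.5 and 116 CPM in lung content and 23.3, 55.5 and 86.2 CPM in liver content (0.71, SE 0.27, edgeR adjusted p = 0.0270). Both calls were lost when libraries sharing a pool of pups were blocked (adjusted p = 0.0861 for Cdkn1a and 0.0878 for Cdkn1b) and when 1 of several libraries was left out. For Cdkn1a these were live WT NAC and live Het NAC of lung content labelled lung, dead Null placebo labelled liver, live WT placebo and live Het placebo labelled lung, and live Het NAC labelled liver (adjusted p of 0.0539 to 0.127). For Cdkn1b they were the same libraries apart from live WT NAC (0.0506 to 0.0892).

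**Figure D2:**
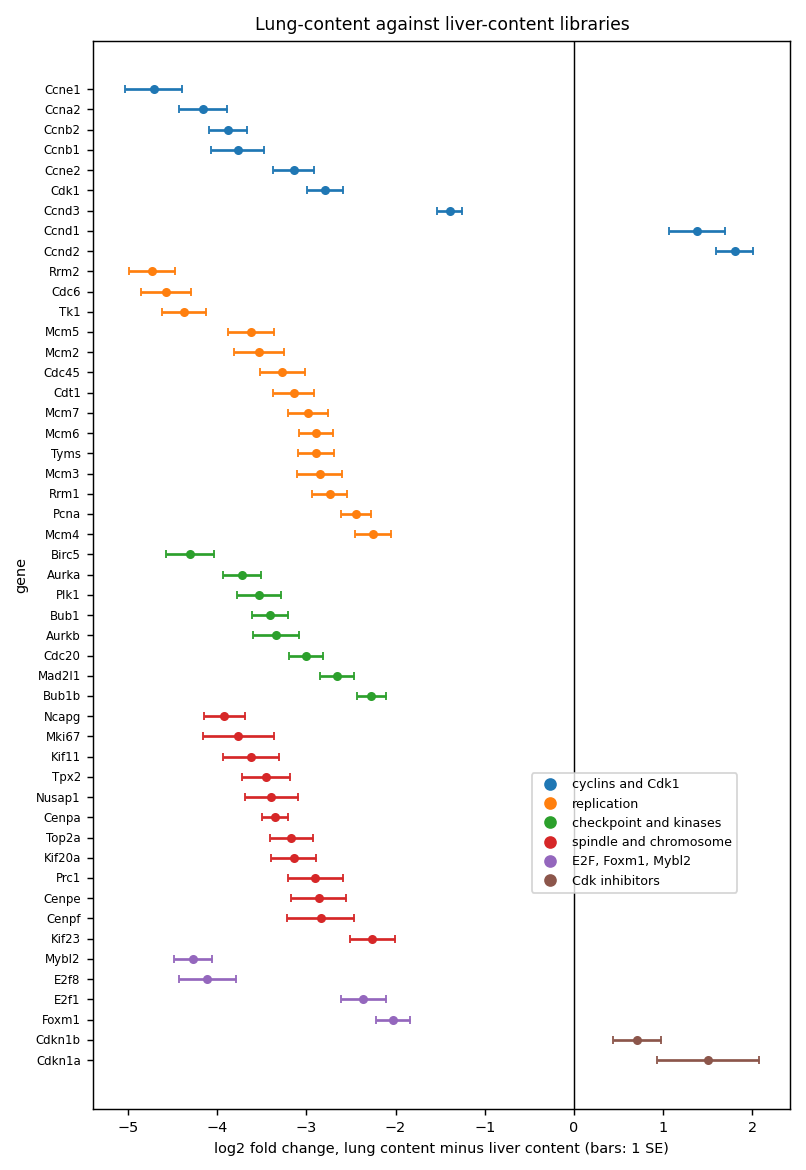
Log2 fold change of each of the 49 genes, lung content minus liver content (horizontal axis; bars, 1 SE of edgeR's quasi-likelihood fit over 15 libraries), by role in colour. The 45 genes left of 0 run from -4.73 (Rrm2) to -1.39 (Ccnd3), and Cdkn1b, Ccnd1, Cdkn1a and Ccnd2 lie right of 0.

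Other replication and mitotic genes, listed apart from the 49, were lower as well, and other G1 regulators were divided, beside 39.2% of all genes called lower and 34.9% called higher in lung content. All 38 other replication genes tested were lower in lung content, the lowest being Orc1, a subunit of the origin recognition complex, at -4.29. Of 53 other mitotic genes tested, 51 were lower and none higher, led by Cdca3, a trigger of mitotic entry, at -4.23. Among 26 other G1 regulators, 14 were lower, led by Myc at -2.63, and 4 were higher. Of these 4, Cdkn2b (p15), an inhibitor of Cdk4 and Cdk6, had 30.5 to 46.9 CPM in lung content and at most 0.0838 CPM in any liver-content library.

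Markers of blood cells and their precursors, and of macrophages, moved with these genes. All 23 entries of the erythroid list were lower in lung content (median -4.13), and its summed level was 7570 to 19300 CPM in lung content and 12000 to 77000 CPM in liver content. Without the globin genes the sum was 268 to 725 CPM in lung content and 1470 to 8470 CPM in liver content, without overlap. None of the 23 was at 0 in any library. The summed level of 5 granulocyte progenitor markers was 0.848 to 7.84 CPM in lung content and 307 to 820 CPM in liver content, that of 6 megakaryocyte markers 15.8 to 33 and 208 to 416 CPM, that of 6 macrophage markers 34.8 to 122 and 242 to 527 CPM, and that of 6 lymphoid markers 4.32 to 13.1 and 36.5 to 97 CPM. Each list was called lower in lung content for all its entries tested. So were all 8 hepatocyte markers (median -10.85), of which Alb had served to sort the libraries. All entries tested of the lung epithelium, endothelium, lung mesenchyme and cardiac muscle lists were called higher. The part of blood cells, macrophages and hepatocytes in the difference between the contents was not tested.

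Short sequence elements around the start sites were counted, and 6 promoters are shown because they cover the main roles, from mitosis and replication to the inhibitor. RefSeq promoter windows (GRCm38.p6; 250 bases before and 50 after the start of transcription) were at hand for 40 of the 49 genes. They were searched on both strands for the CCAAT box (CCAAT), the cell cycle homology region or CHR (TTTGAA), the E2F site (TTTGGCGC, TTTCCCGC, TTTGCCGC or TTTCGCGC) and the paired core of a p53 site (CATG, a gap of 6 bases, CATG). CCAAT boxes and CHRs serve the mitotic genes and E2F sites the replication genes in textbook accounts, and some E2F matches overlap each other on opposite strands. Capitals mark every match.

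Cdk1, chr10:69352863-69353162, minus strand: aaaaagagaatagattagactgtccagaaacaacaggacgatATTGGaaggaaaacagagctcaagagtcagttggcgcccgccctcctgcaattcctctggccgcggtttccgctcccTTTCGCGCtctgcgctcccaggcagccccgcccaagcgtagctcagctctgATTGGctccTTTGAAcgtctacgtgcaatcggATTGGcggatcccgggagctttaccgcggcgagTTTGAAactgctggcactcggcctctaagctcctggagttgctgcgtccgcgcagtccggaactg

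Ccnb2, chr9:70421505-70421804, minus strand: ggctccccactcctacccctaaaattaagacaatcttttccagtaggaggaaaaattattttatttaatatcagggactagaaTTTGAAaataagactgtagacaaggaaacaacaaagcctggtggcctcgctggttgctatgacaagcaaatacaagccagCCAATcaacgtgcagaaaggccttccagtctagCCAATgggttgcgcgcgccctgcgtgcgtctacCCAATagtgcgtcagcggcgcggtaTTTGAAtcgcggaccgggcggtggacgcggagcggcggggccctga

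Top2a, chr11:99024140-99024439, minus strand: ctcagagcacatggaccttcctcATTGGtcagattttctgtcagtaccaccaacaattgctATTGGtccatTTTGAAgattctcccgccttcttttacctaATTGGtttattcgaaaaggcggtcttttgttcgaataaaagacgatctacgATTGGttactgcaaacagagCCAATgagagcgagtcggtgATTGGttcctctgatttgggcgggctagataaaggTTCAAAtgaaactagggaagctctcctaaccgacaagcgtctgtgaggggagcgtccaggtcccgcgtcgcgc

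Mcm5, chr8:75109259-75109558, plus strand: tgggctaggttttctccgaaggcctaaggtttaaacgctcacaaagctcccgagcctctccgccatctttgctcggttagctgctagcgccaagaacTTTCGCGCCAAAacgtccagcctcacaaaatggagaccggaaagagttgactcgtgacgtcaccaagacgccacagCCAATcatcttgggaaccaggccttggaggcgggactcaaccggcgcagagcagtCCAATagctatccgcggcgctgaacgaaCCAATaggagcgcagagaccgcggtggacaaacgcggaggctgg

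Mcm6, chr1:128359656-128359955, minus strand: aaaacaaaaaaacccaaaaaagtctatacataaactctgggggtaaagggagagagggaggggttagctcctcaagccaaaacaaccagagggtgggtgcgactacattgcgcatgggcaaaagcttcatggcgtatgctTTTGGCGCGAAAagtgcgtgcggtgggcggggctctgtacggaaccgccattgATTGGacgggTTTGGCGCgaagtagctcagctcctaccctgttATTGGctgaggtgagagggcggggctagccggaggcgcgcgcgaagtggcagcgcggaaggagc

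Cdkn1a, chr17:29090729-29091028, plus strand: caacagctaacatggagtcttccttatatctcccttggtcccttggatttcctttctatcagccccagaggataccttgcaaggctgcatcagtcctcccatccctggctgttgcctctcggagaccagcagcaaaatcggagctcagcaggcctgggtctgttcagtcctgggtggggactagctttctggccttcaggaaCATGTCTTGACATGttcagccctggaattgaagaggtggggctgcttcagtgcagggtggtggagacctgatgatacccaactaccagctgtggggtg

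A CCAAT box was present in 28 of the 40 windows (70%), against 37.4% of all 32851 windows, and a CHR in 17 of 40 (42.5%), against 17.9%. The 40 windows are the first listed for each gene, whereas the 32851 may hold several per gene, so the shares are not strictly alike. All 17 with a CHR also held a CCAAT box, a combination found in 6.95% of all windows. Among the 10 windows of spindle and chromosome genes, 8 held both, and among the 13 of replication genes 2 did. The E2F site was found in 8 of 40 windows (20%), against 2.26% of all, and 6 of the 8 belonged to replication genes: Cdc6, Cdt1, Mcm3, Mcm5, Mcm6 and Mcm7. Top2a held 6 CCAAT boxes and 2 CHRs, and Mcm6 held 3 E2F matches and no CHR. Neither Cdkn1a nor Cdkn1b held a CHR or an E2F site. The paired p53 core was in the window of Cdkn1a, which p53 induces, in no other of the 40, and in 0.712% of all windows. These are matches of letters, and binding was not measured.

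The mixed library stood near the lung-content libraries. For 25 of the 49 genes its level was inside the lung-content range, for 23 it lay between the 2 contents, and it was inside the liver-content range for Cdkn1a (44.4 CPM, inside both ranges) and Cdkn1b (51.4 CPM). It had 87.6 CPM of Mki67 and 29.2 CPM of Rrm2, the first inside and the second above the lung-content range. It enters the comparison of the contents only as an alternative.

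The liver-content libraries differed widely among themselves. Mki67 had 1510 CPM in live WT NAC, 1380 in dead Het NAC, 1290 in dead Het placebo, 836 in live Het NAC, 818 in dead Null NAC labelled lung, 533 in live WT placebo, 280 in live Het placebo and 274 in dead Null NAC labelled liver. The highest was 5.52 times the lowest, the widest ratio among the 47 genes that are not inhibitors. At the other end, Ccne1 and Tk1 varied only 1.41-fold. The median ratio was 2.90 for the spindle and chromosome genes and 2.07 for the replication genes.

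The summed erythroid markers were 77000 CPM in live WT NAC, 69800 in dead Het NAC, 60800 in dead Het placebo, 53700 in dead Null NAC labelled lung, 53500 in live Het NAC, 31100 in live WT placebo, 13400 in dead Null NAC labelled liver and 12000 CPM in live Het placebo. The 3 libraries with the most erythroid RNA were also the 3 with the most Mki67, and the 2 with the least had the least. Of the 49 genes, 27 were highest in dead Het NAC, 26 were lowest in dead Null NAC labelled liver, and 15 were lowest in live Het placebo. The part of the red cell precursors in this spread was not tested. The 2 dead Null NAC libraries, alike by label in survival, treatment and genotype, stood far apart. Of the 49 genes, 42 were higher in the one labelled lung, with a median ratio of 1.65. Cdkn1a had 234 CPM there against 25.3 CPM in the one labelled liver.

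**Figure D3:**
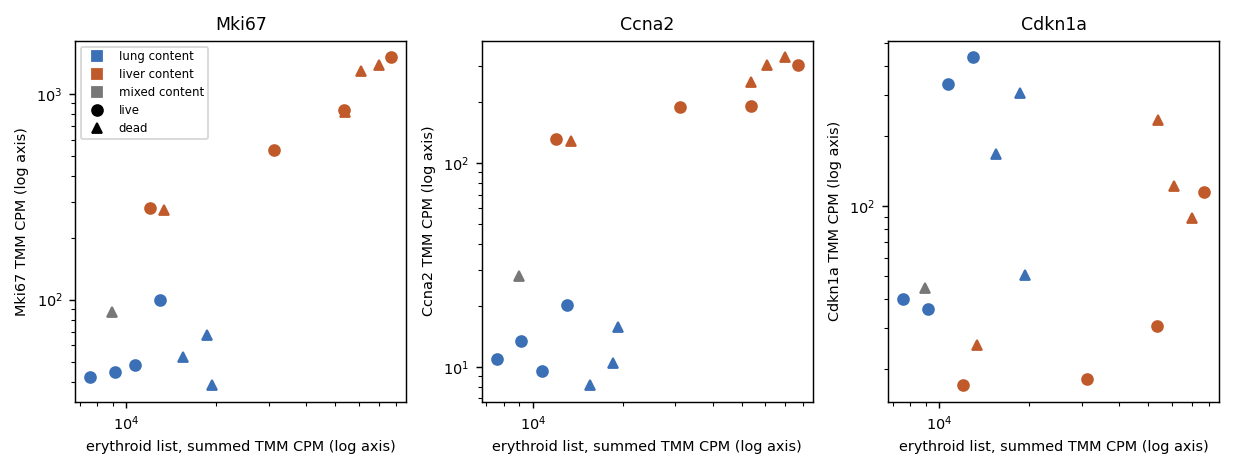
Mki67, Ccna2 and Cdkn1a (vertical axes, TMM CPM, log scale) against the summed level of the erythroid list (horizontal axes, TMM CPM, log scale) in the 16 libraries, coloured by content, with circles for live and triangles for dead pups. In liver content Mki67 runs from 274 to 1510 CPM and is highest where the erythroid sum is highest. Lung-content libraries with overlapping erythroid sums hold 38.4 to 99.3 CPM. The sums overlap only with the globin genes included: without them, not drawn, they are 268 to 725 CPM in lung content and 1470 to 8470 CPM in liver content.

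Survival was compared within each content, with treatment as a covariate. Dead and live pups also differed in age at harvest. They differed in genotype too, since the dead pups were Het and Null and the live pups WT and Het, and genotype was not in the fit. Survival, age and genotype cannot be told apart in this comparison. In lung content (3 dead against 4 live libraries), none of the 49 genes passed the test, and 0 of 13990 genes tested, 0%, were called by edgeR, with 506 at an unadjusted p under 0.05, none of them among the 49. DESeq2 called 20 genes and none of the 49. The median log2 fold change, dead minus live, was -0.19, and 38 of 49 values were below 0. Mki67 had 38.4, 52.9 and 67 CPM in the dead libraries and 42, 44.6, 48 and 99.3 CPM in the live ones, which overlapped (log2 fold change -0.01, SE 0.24, edgeR adjusted p = 0.999). Top2a was at -0.26 (SE 0.25), Cdk1 at -0.06 (SE 0.28), Ccnd1 at 0.08 (SE 0.28) and Cdkn1b at 0.14 (SE 0.19), each with an adjusted p of 0.999 by the same edgeR test. Cdkn1a had 304, 50.5 and 168 CPM in the dead and 335, 435, 40 and 36.4 CPM in the live libraries. Its mean was lower in the dead (174 CPM) than in the live libraries (212 CPM), whereas its log2 fold change with treatment as a covariate was 0.83 (SE 0.49, edgeR adjusted p = 0.999). The summed erythroid level was 15500 to 19300 CPM in the dead and 7570 to 13000 CPM in the live libraries, and its part in these values was not tested.

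In liver content (4 dead against 4 live libraries), again 0 of 12993 genes tested, 0%, were called by edgeR, 664 had an unadjusted p under 0.05, none of them among the 49, and DESeq2 called 45 genes and none of the 49. The median of the 49 was 0.17 with 43 values above 0. Mki67 had 274, 818, 1290 and 1380 CPM in the dead libraries and 280, 533, 836 and 1510 CPM in the live ones, almost the same span (0.30, SE 0.58, edgeR adjusted p = 0.910). Cdkn1a had 25.3, 89.2, 122 and 234 CPM in the dead libraries and 17.1, 18.1, 30.7 and 115 CPM in the live ones. It was the gene of the 49 with the largest fold change here, 1.45 (SE 0.72, edgeR adjusted p = 0.801). Top2a was at 0.08 (SE 0.33), Cdk1 at 0.19 (SE 0.22), Ccnd1 at -0.70 (SE 0.42) and Cdkn1b at 0.32 (SE 0.42). The difference between the contents in the effect of death was tested as an interaction and called none of the 49.

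NAC was compared with placebo in lung content, with survival as a covariate (3 NAC against 4 placebo libraries). Cdkn1a (chromosome 17, 29090976 to 29100727, GRCm38), the p53-induced inhibitor of Cdk2, was the 1 gene of the 49 that was called. It had 335 CPM in live WT, 435 in live Het and 304 in dead Het with NAC, and 40 in live WT, 36.4 in live Het, 50.5 in dead Het and 168 CPM in dead Null with placebo. Every NAC library lay above every placebo library, and the Null library was the highest of the placebo group. The log2 fold change, NAC minus placebo, was 2.65 (SE 0.49, edgeR adjusted p = 0.0226), or 6.28-fold. Over all genes, 7.63% were called higher and 5.68% lower with NAC, and ranges did not overlap for 29.4% of all genes tested and for 4 of the 49 (Cdkn1a, E2f1, Cdc45 and Cenpa). The exons of Cdkn1a overlap 273 bases of AC167363.2 on the other strand.

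This call depended on single libraries. It was lost without live Het NAC (adjusted p = 0.0756), dead Het placebo (0.0603), live WT placebo (0.0936) or live Het placebo (0.104), while the log2 fold change stayed between 2.37 and 2.54. Of the 3 NAC libraries 2 were labelled lung, and of the 4 placebo libraries 1 was, so that treatment and tissue label moved together in part. No NAC library of a Null pup had lung content.

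The replication genes were mostly below 0 with NAC, 13 of 14 with a median of -0.47, and none was called by edgeR. Mcm2 had 8.26, 10.4 and 9.3 CPM with NAC in live WT, live Het and dead Het, and 18.5, 19.3, 18.3 and 8.8 CPM with placebo in these 3 and in dead Null. In each pup group present in both treatments the NAC library was lower, and dead Null placebo lay among the NAC libraries (log2 fold change -0.83, SE 0.26, edgeR adjusted p = 0.0620). Mcm5, with 7.46, 9.75 and 7.41 CPM with NAC and 15.5, 16, 18.6 and 7.01 CPM with placebo in the same order, was also lower with NAC in each of these pup groups, and dead Null placebo lay below the NAC libraries (-0.85, SE 0.30, edgeR adjusted p = 0.0897). So it did for Mcm6, with 23.9, 21.9 and 24.2 CPM against 33.9, 36.8, 37 and 18.4 CPM (-0.45, SE 0.23, edgeR adjusted p = 0.195). E2f1, which activates these genes, had 5.15, 2.65 and 5.6 CPM with NAC and 10, 8.59, 8.14 and 6.24 CPM with placebo, without overlap (-0.87, SE 0.30, edgeR adjusted p = 0.0793).

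Without the dead Null placebo library, 14 of the 49 were called (28.6%), a share like the 29.3% of all genes tested that were called in that fit. Mki67, Cdkn1a and Cdkn1b were then higher with NAC, and Mcm2, Mcm3, Mcm5, Mcm6, Mcm7, Cdc45, Rrm1, Tyms, Mad2l1, E2f1 and Ccnd2 were lower. DESeq2 with all 7 libraries called 5 of the 49 (Cdkn1a and Mki67 higher, Mcm2, Mcm5 and E2f1 lower) or 10.2%, against 19.8% of all genes tested. With edgeR it was 1 of 49, or 2.04%, against 13.3%. The shares among the 49 were thus at or below those of all genes in these 3 fits.

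The mitotic genes had no common direction with NAC. Of the 12 spindle and chromosome genes 10 were above 0, with a median of 0.24, and of the 8 checkpoint genes 5 were, with a median of 0.00. Mki67 had 48, 99.3 and 67 CPM with NAC in live WT, live Het and dead Het, and 42, 44.6, 38.4 and 52.9 CPM with placebo in these 3 and in dead Null. The live WT NAC library lay inside the placebo range (0.68, SE 0.24, edgeR adjusted p = 0.0848). Cdk1 had 9.59, 23.7 and 17.5 CPM against 10.6, 13.2, 11.4 and 9.58 CPM (0.57, SE 0.28, edgeR adjusted p = 0.181). Top2a was at 0.16 (SE 0.25), Ccnd1 at -0.22 (SE 0.29) and Cdkn1b at 0.50 (SE 0.19, edgeR adjusted p = 0.106).

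**Figure D4:**
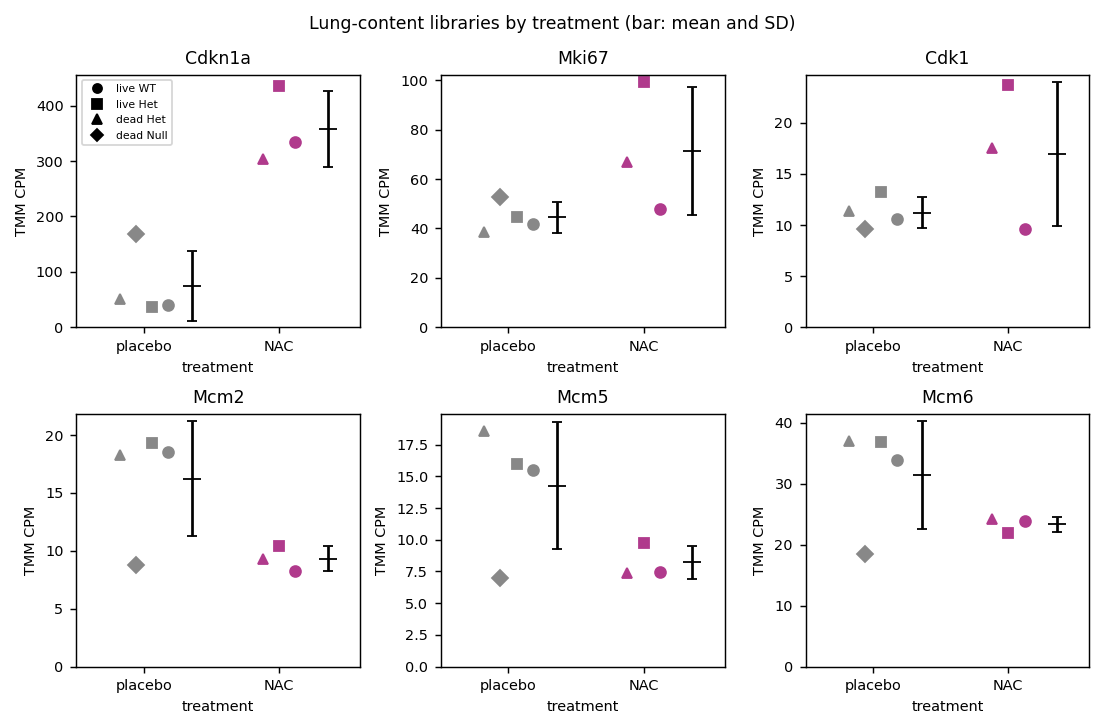
Levels (vertical axes, TMM CPM, from 0) of Cdkn1a, Mki67, Cdk1, Mcm2, Mcm5 and Mcm6 in the 7 lung-content libraries by treatment, with a symbol for each pup group and the mean with 1 SD beside each treatment. The 3 NAC libraries hold 304 to 435 CPM of Cdkn1a and the 4 placebo libraries 36.4 to 168 CPM, and for Mcm2, Mcm5 and Mcm6 the dead Null placebo library lies with or below the NAC libraries.

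Some related genes were called too. Of 17 p53 target genes tested, which did not include Cdkn1a, 4 were higher with NAC (Trp53inp1, Sesn1, Sesn2 and Fas) and none lower. Trp53inp1, a stress-induced gene of cell cycle arrest and autophagy, was the most changed at 2.43 (SE 0.43, edgeR adjusted p = 0.0221), with 332 to 590 CPM with NAC and 58.4 to 182 CPM with placebo. Of 38 other replication genes 5 were lower (Ung, Pold1, Pola2, Lig1 and Rfc2), led by Ung, which removes uracil from DNA, at -1.80. Only Dbf4, the activator of the Cdc7 kinase, was higher, at 1.52. None of 53 other mitotic genes was called, while 2 of 26 other G1 regulators were higher, E2f7 (1.11) and Lin52. These counts stand beside 7.63% of all genes called higher and 5.68% called lower, and calls over all genes fell to 0 without live WT placebo or live Het placebo, to 1 without live Het NAC and to 35 without dead Het placebo. Of 22 erythroid entries tested 6 were higher with NAC, and the summed erythroid level was 10700, 13000 and 18600 CPM with NAC and 7570, 9140, 19300 and 15500 CPM with placebo in the order of pup groups above. Of the other marker lists, Mpo of the granulocyte progenitors was called higher (2.44) and Tcf21 of the lung mesenchyme lower (-0.68), while the 4 macrophage markers tested (median -0.60) and the 3 lymphoid markers tested (median -1.01) were all below 0 and not called. The part of these cells in the differences was not tested.

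In liver content (5 NAC against 3 placebo libraries), 0 of 12993 genes tested, 0%, were called between NAC and placebo by edgeR, 259 had an unadjusted p under 0.05, none of them among the 49, and DESeq2 called 1 gene, not among the 49. The median of the 49 was 0.19, with 45 values above 0. Cdkn1a had 115, 30.7, 89.2, 25.3 and 234 CPM with NAC and 18.1, 17.1 and 122 CPM with placebo, which overlapped (1.03, SE 0.76, edgeR adjusted p = 1). Mki67 was at 0.49 (SE 0.61), Top2a at 0.40 (SE 0.34), Cdk1 at 0.24 (SE 0.23), Ccnd1 at 0.15 (SE 0.44) and Cdkn1b at 0.51 (SE 0.45). The summed erythroid level was 13400 to 77000 CPM with NAC and 12000 to 60800 CPM with placebo. The interaction of NAC with content was 1.62 for Cdkn1a (SE 1.03, edgeR adjusted p = 0.479) and was called for none of the 49, so that an effect of NAC on Cdkn1a in lung content alone was not shown.

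Live Het and live WT libraries were compared over both contents, with content and treatment as covariates (4 against 4). None of the 49 passed the test. EdgeR called 0 of 14186 genes tested, 0%, with 353 at an unadjusted p under 0.05, of which Bub1 was the only one of the 49 (-0.59, SE 0.24), and DESeq2 called 7 genes and none of the 49. The median was -0.02. Mki67 had 99.3 and 44.6 CPM in Het and 48 and 42 CPM in WT libraries of lung content, NAC and placebo in turn, and 836 and 280 CPM against 1510 and 533 CPM in liver content. The Het value was thus above the WT value in lung content and below it in liver content, in both treatments (-0.21, SE 0.35, edgeR adjusted p = 1). Top2a was at 0.00 (SE 0.28), Cdk1 at 0.27 (SE 0.24), Ccnd1 at 0.17 (SE 0.23), Cdkn1a at -0.28 (SE 0.41) and Cdkn1b at -0.31 (SE 0.23).

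Paired by their labels, the 8 pairs of a NAC and a placebo library each compare 1 library with 1, with no replicate check. In the pairs whose NAC library had lung content and whose placebo library had liver content, most of the 49 were past 2-fold lower with NAC: 45 lower and 4 higher in live WT lung, 40 lower and 3 higher in live Het lung, and 45 lower and 3 higher in dead Het liver. Over all genes, 56%, 60.4% and 52.0% were past 2-fold in these pairs. In the others the NAC library had liver content and the placebo library lung or mixed content, and most of the 49 were past 2-fold higher. These were 46 higher and 2 lower in live WT liver, against 50% of all genes past 2-fold, 45 and 2 in live Het liver (50.4%), 45 and 2 in dead Het lung (51.3%), 46 and 2 in dead Null lung (47%), and 45 and 3 in dead Null liver (55.9%). The medians of the 49 ran from -3.66 to -2.12 in the first 3 pairs and from 2.64 to 3.54 in the other 5. Mki67, for example, was 48 CPM with NAC and 533 CPM with placebo in the pair labelled live WT lung, and 1510 CPM with NAC and 42 CPM with placebo in live WT liver. Treatment and content cannot be told apart in these pairs.

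**Figure D5:**
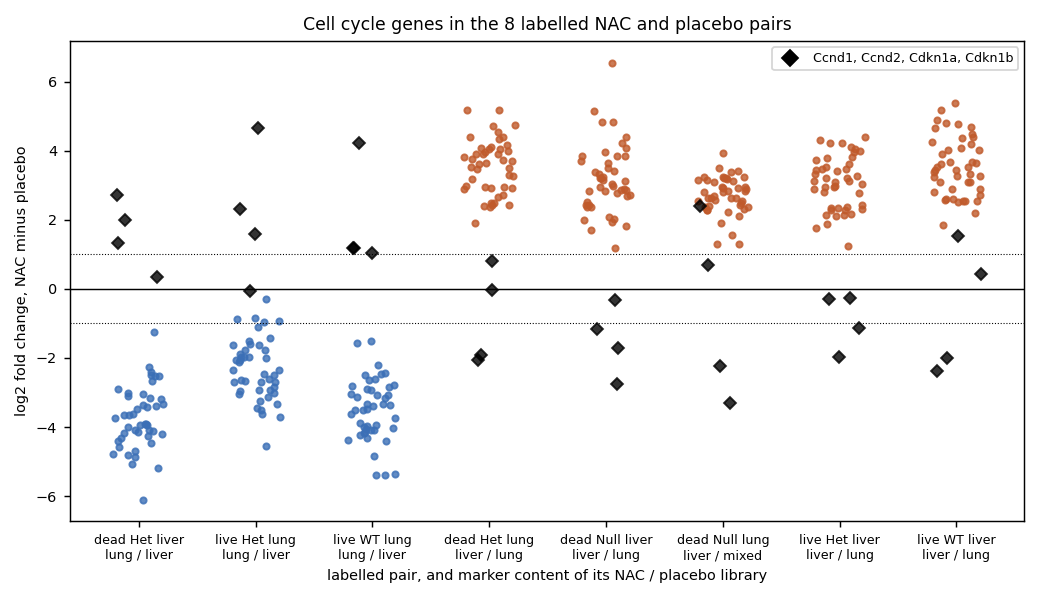
Log2 fold change, NAC minus placebo (vertical axis), of the 49 genes in each of the 8 labelled pairs (horizontal axis, with the marker content of the NAC and the placebo library), with diamonds for Ccnd1, Ccnd2, Cdkn1a and Cdkn1b and dotted lines at 2-fold. Medians are between -3.66 and -2.12 where the NAC library had lung content and between 2.64 and 3.54 where it had liver content.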

How the data were processed

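Stranded mRNA libraries of pooled RNA were sequenced, per the labels. The authors trimmed adapters, aligned reads to the Ensembl mouse genome GRCm38 (mm10 in the submitters' notes) with the Omicsoft aligner and kept uniquely mapped reads. They deposited an estimated count for each gene symbol, not normalized, and how strand was used is not given in the sources used here. Between 6.5% and 8.24% of the values of a library were not whole numbers, so all were rounded, although the design had been written for counts. The submitters' notes name R 4.0.3 and edgeR 3.30.3.

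Scaling by TMM factors over the 16 libraries and the quasi-likelihood tests were run here with edgeR 4.0.16 (R 4.3.3). Genes averaging 1 CPM or more over the libraries of a fit were tested, which kept all 49 in every fit. A gene was called where the p adjusted over all genes tested (Benjamini-Hochberg) was under 0.05. SEs are the log2 fold change divided by the square root of the F statistic. DESeq2 1.42.0 was an alternative. Labelled pairs used a 2-fold limit with a prior count of 0.125. Libraries were grouped by pup group, treatment and marker content. The p-values measure the spread between pooled libraries, not between pups. Libraries of 1 pup group and treatment under both tissue labels may come from the same pups, as may the 2 dead Null NAC libraries, both of liver content and counted as 2 replicates. Intervals between pups cannot be had from pools. All 49 genes were counted by role, and full statistics were given for Top2a, Mki67, Cdk1, Ccnd1, Cdkn1a and Cdkn1b and for up to 4 called genes each way with a mean of at least 5 CPM. The members and lists were chosen with earlier results of these data known. The motifs and the other genes named were chosen after values were seen.

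The test was checked on simulated counts with 200 genes changed 4-fold: it recovered 200 with 12 others called among 14009 genes for the contents, and 200 with 11 others among 13947 for NAC in lung content. Every simulated gene had the same dispersion and the libraries were independent. The check therefore does not cover the dependence on single libraries seen for NAC in lung content. Exon positions, lengths and overlaps come from GENCODE M21. Alternatives were the scaling, filters on low counts, DESeq2, blocks, other contents and leaving out each library. TMM factors over the fitted libraries and the fit on label-matching libraries were added after seeing the data. Python 3.11.15 and matplotlib 3.10.9 drew the figures.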

Additional observations from a re-analysis of the deposited data

Results flagged for a closer look

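Among the 49 genes in each content (98 groups of 7 or 8 libraries), 7 groups had 1 library far from the others by Dixon's criterion at the 95% level, which chance alone meets in about 1 of 20 groups. In lung content, 6 of them were the live Het NAC library labelled lung. It had 14.5 CPM of Ccnb1 (next highest 7.12), 10.9 CPM of Cdt1 (7.55), 9.47 CPM of Cenpa (6.98), 12.8 CPM of Cenpe (7.01), 23.7 CPM of Cenpf (6.94) and 40.9 CPM of Top2a (26.5). This library was the highest in lung content for 28 of the 49 genes, held the fewest counts of all (7236865) and had the largest Rn45s share (26.2%). Without it, Cdkn1a in NAC against placebo of lung content was at 2.38 on the log2 scale (edgeR adjusted p = 0.0756). In liver content, Ccnd2 was 8.91 CPM in the dead Null NAC library labelled lung, where the next lowest was 23 CPM. The part of depth and Rn45s in these values was not tested.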

How the results depend on the processing

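Of 137 recomputed counts of genes past a threshold among the 49 (called, or past 2-fold in a labelled pair), 126 stayed within 1.5 times the reported count, and 11 moved. With content taken from the deposited tissue labels, 0 of the 49 were called, and these log2 fold changes turned: Top2a 0.24, Cdk1 0.31, Ccnd1 -0.35, Cdkn1b -0.07, Ccnd2 -0.16, Rrm2 0.26, Ccne1 0.19, Cdc6 0.41 and Tk1 0.18. By its construction this fit compares groups that both hold lung and liver content. For NAC in lung content, the count of 1 became 5 with no filter on low counts (10.2% of the 49 and 14.3% of all genes) and 5 with DESeq2 (10.2% and 19.8%). It became 10 with pup group as a replicate block (Cdkn1a, Cdkn1b and Mki67 higher, 7 lower), or 20.4% of the 49 and 25.7% of all genes. With each library left out it was 0 to 14. The live WT NAC library left out gave 3 (Cdk1, Cdkn1a and Mki67), or 6.12% against 6.47% of all genes. Leaving out dead Het NAC gave 2 (Cdkn1a and Mcm3), or 4.08% against 15.1%. Leaving out dead Null placebo gave 14 (28.6% against 29.3%), and each of the 4 others gave 0. The cause was not tested. The counts for survival, NAC in liver content, and live Het against WT stayed at 0 under every alternative run. Called genes over the whole table in lung content with NAC fell from 1863 to 872 with library size alone and rose to 2766 with DESeq2 and 3598 with the block. With a library left out it was 0 to 4104, 0 without live WT placebo or live Het placebo, 1 without live Het NAC and 35 without dead Het placebo. It was 907 without live WT NAC, 2109 without dead Het NAC and 4104 without dead Null placebo. Libraries of a pup group under NAC and placebo deviated from their treatment means with correlations across genes of -0.0341 to 0.0602 in lung content. In liver content these were -0.0565 for live WT, 0.416 for live Het and 0.384 for dead Het. The main fits did not take pup group as a pairing. Correlations of deviations from means of so few libraries cannot decide whether it should be one. Blocking by pool of pups left 47 of the 49 called between the contents, as did the 7 libraries whose content is that of their label, with 2 higher and 45 lower. For these and the other alternative fits of the contents, the share of all genes called is not given here. In the main fit 39.2% of all genes tested were called lower and 34.9% higher in lung content.

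Pools of 2 or 3 experiments give 1 library per group, so no estimate of the spread between pups exists. Groups of 7 and 8 libraries carry the comparison of the contents, and groups of 3 to 5 the others. Leaving out either of the 2 dead Null NAC libraries, which may share pups, left the count among the 49 at 49 between the contents and at 0 for survival and for NAC in liver content. The lowest count of any of the 49 genes was 4, and 3 of all their values were under 10 counts, so that depth limited few of them. Content was assigned from the data and not by the labels, whereas pup group, survival and treatment rest on the labels alone.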

Other observations

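Of 17 p53 targets tested, Trp53inp1 and Sesn1, chosen after their values were seen, varied widely among the liver-content libraries, while others such as Ccng1 (34.8 to 39.2 CPM) did not. Over the liver-content libraries, Trp53inp1 had 509 CPM in dead Het placebo, 420 in dead Null NAC labelled lung, 162 in dead Het NAC, 101 in live WT NAC, 49.7 in live WT placebo, 42.8 in dead Null NAC labelled liver, 40.2 in live Het NAC and 29.4 CPM in live Het placebo. Sesn1, a stress-induced inhibitor of growth signals, had 160 and 199 CPM in dead Het placebo and dead Null NAC labelled lung, and 31.2 to 61.9 CPM in the other 6. The 4 liver-content libraries with the most Cdkn1a (89.2 to 234 CPM) were also the 4 with the most Trp53inp1, and they include live and dead pups, NAC and placebo, and both tissue labels. Sesn1, Sesn2, Bbc3, Btg2, Gadd45a and Pmaip1 split the libraries the same way. Fas (13.2 to 16.3 CPM in these 4, 18.1 to 29.1 CPM in the rest) and Perp (26.5 to 53.8 and 57.4 to 91.2 CPM) split them the opposite way. The hepatocyte markers had no common direction. Tat (465 to 2720 and 180 to 404 CPM), Alb (111000 to 142000 and 60200 to 103000 CPM) and Cps1 (2230 to 2620 and 1200 to 2040 CPM) were higher in these 4. Apoa1 was lower (12400 to 16400 and 18100 to 22700 CPM), and Ttr, Serpina1b, Hnf4a and Ahsg overlapped. The split was not limited to p53 targets. These 4 libraries also had the largest summed erythroid markers (53700 to 77000 and 12000 to 53500 CPM), although without the globin genes the sums overlapped (3930 to 8470 and 1470 to 4950 CPM). Their summed lung mesenchyme markers were the largest too (203 to 486 and 95.6 to 179 CPM). A common cause, and the part of library composition, was not tested. In the mixed library, Cdkn1a was 44.4 CPM, Trp53inp1 65.3 CPM and Sesn1 23.1 CPM.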
